A study of Mus musculus with 12 samples.

Results

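The comparison described here is Zfp266 KO against control at 72 h of OSKM reprogramming, in 6 Omni-ATAC-seq libraries, 3 per group. Its members are all 1608 genomic intervals of the deposited differential accessibility table for this comparison, of 273256 intervals made by merging the peak lists of all 12 libraries of the study. The mean of the 3 KO libraries lay above the control mean at 1522 intervals, called more open regions (MORs), and below it at 86, called more closed regions. These are 0.557% and 0.0315% of all merged intervals. The table holds only intervals that had passed its own threshold on these same libraries. That threshold favours intervals whose KO and control values do not overlap, and none overlapped at the 1522 MORs and 86 more closed regions. Counts were at hand for listed intervals only, so the same share over all merged intervals is not known. No p-value is given for a single interval.

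The cells were P2 fibroblasts of strain 129 from E12.5 embryos. According to the methods of the study the embryos were chimeras made with 1 embryonic stem cell line, which carries Cas9 and a doxycycline-inducible cassette of Myc, Klf4, Oct4 and Sox2 (MKOS). For reprogramming, the methods refer to the RNA-seq plating, in which these cells were mixed with many more wild-type fibroblasts of strain 129 before transduction. Control cells received a control sgRNA by lentivirus and KO cells an sgRNA against Zfp266, so a KO library is a population with mixed edits and not a clone. Both groups were put into ESC medium containing vitamin C (10 µg/ml) and doxycycline (300 ng/ml) 24 h after transduction, and mOrange-positive cells expressing the factors were sorted 96 h after transduction. The 6 fibroblast libraries of the study received the same sgRNAs without doxycycline. Nothing in the labels says that the numbered libraries of a group came from separate embryos. The listed intervals held 141616 to 324141 reads per library, which is not the depth of the whole library, and the size factors ran from 0.63 to 1.10.

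Zfp266 encodes a KRAB-type zinc finger protein, a class of DNA-binding proteins that recruit the TRIM28 corepressor and often bind transposable elements. ATAC-seq measures how readily the Tn5 transposase inserts into DNA, so its read counts report chromatin accessibility and neither transcription nor factor binding. In early reprogramming fibroblast enhancers lose accessibility while elements bound by the OSKM factors gain it. KLF factors recognise GC-rich boxes, SOX factors a short CATTGT-like word and OCT4 an octamer.

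Zfp266 lies at chr9:20495068-20521417 (GRCm38). The peak over its start site was 5.03-fold over background in the merged control list and 4.52-fold in the merged KO list. The nearest listed interval is 142846 bp from the gene, and accessibility at the promoter does not report the edit in the coding sequence. The 3 sgRNAs that the study lists for Zfp266 all match its coding exons and are shown to place the edit. The study marks sgR3 as the guide of its detailed work, and which guide went into these libraries is not stated further in the sources used here. They read, with the letters in lower case:

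sgR1, chr9:20502049-20502067, plus strand: acagcactttccgccacct

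sgR2, chr9:20500369-20500387, minus strand: caattatgccttaacacag

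sgR3, chr9:20505091-20505109, minus strand: cagaagaatctataccgag

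A peak covered the start site of 9 of 10 fibroblast markers, 4 of 7 pluripotency markers and 6 of 6 epithelial markers in each of the merged control and KO reprogramming lists, of 2 of 4 endothelial markers in each, and of 0 of 4 blood markers in either. Of 4 neural markers, 2 had such a peak in the control list and 3 in the KO list, the added one at Sox10. Nanog, Pou5f1 and Dppa5a, genes of pluripotent cells, and the fibroblast marker Col1a1 had none in either list.

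Accessibility at the MORs rose from a median of 62.2 normalised counts in control cells to 135 in KO cells. A normalised count is a read count divided by the library's size factor, and fold changes below are differences of mean log2(normalised count + 1), KO minus control, with the SE over 3 and 3 libraries. The median over the MORs was 1.03 on this scale, with quartiles of 0.73 and 1.42. The median of the 86 more closed regions was -0.61, with quartiles of -0.76 and -0.50. The library medians of the MORs were 64.8, 60.8 and 62.7 in control and 134, 133 and 138 in KO. The intervals were chosen on these same libraries, so the closeness of these medians does not measure how well replicates agree. These values rest on the deposited size factors. TMM factors estimated from the listed intervals alone assume that most of these do not change and so centre the list near 0 by construction. With them the median of the MORs was 0.06, and 185 intervals were called more open and 288 more closed, which says nothing on the stability of the directions. All directions are given under the deposited scaling. In bulk samples a change in the share of cells with an open site and a change of accessibility per cell cannot be told apart.

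**Figure D1:**
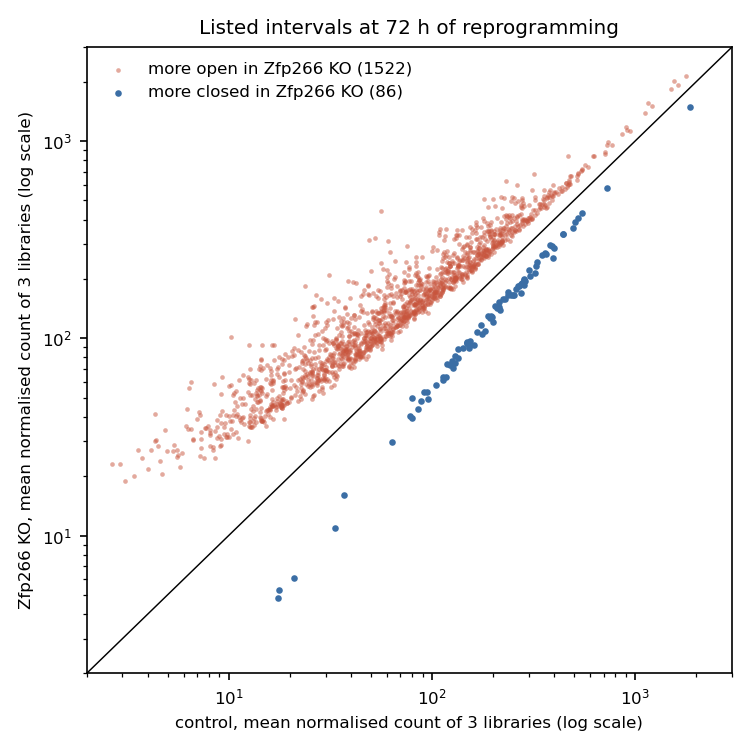
Mean normalised count of the 3 control libraries (x axis, log scale) against that of the 3 Zfp266 KO libraries (y axis, log scale) for each listed interval, with the line of equal values. The 1522 more open intervals lie above the line and the 86 more closed ones below it, and the distance from the line narrows as the count grows.

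The size of the change went with the starting level. The 381 MORs with the lowest control means, from 2.66 to 29.1, had a median change of 1.68 and no change under 0.90, while the 381 with the highest, from 133 to 1784, had a median of 0.57 and a lowest change of 0.24. A threshold on significance admits only large changes at low counts, so this relation is partly fixed by how the table was made. In absolute terms the order was the other way round, with a median gain of 34.0 normalised counts in the first of these sets and 118 in the other.

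Most MORs lay away from promoters. By midpoint 835 (54.9%) fell in introns of protein-coding genes, 594 (39.0%) between genes, 43 (2.83%) in exons and 50 (3.29%) within 1000 bp of a protein-coding start site. Of all merged intervals 42.1% were intronic and 6.56% at promoters. The median distance to a protein-coding start site was 15896 bp for MORs, 53162 bp for more closed regions and 32522 bp for all merged intervals. In the 50 promoter MORs the median change was 0.74, and in the intronic ones it was 1.04. The 2 classes also differ in their starting level, with median control means of 145 and 57.3.

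The largest promoter change was at Trim43b, a member of the TRIM43 group of genes. Its interval, centred 49 bp upstream of the start site, held 5.59, 5.44 and 3.92 normalised counts in control and 25.6, 30.8 and 23.8 in KO, a change of 2.22 ± 0.17. At Crx, the homeobox factor of photoreceptors, the values were 7.82, 9.98 and 7.83 in control and 32.0, 34.4 and 34.9 in KO, a change of 1.87 ± 0.11. At Cga, the shared alpha subunit of the pituitary and placental glycoprotein hormones, they were 20.1, 15.4 and 13.1 against 73.2, 52.9 and 58.7 (1.87 ± 0.22). None of these 3 promoters had a control peak, and the KO peaks were 2.43, 3.14 and 3.41-fold over background.

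The promoters of Ide and Setd4 followed. Ide, the insulin-degrading enzyme, changed by 1.86 ± 0.23 and Setd4, a SET-domain methyltransferase, by 1.79 ± 0.13, from control means of 16.5 and 10.9 normalised counts. Anks3, an ankyrin repeat protein of the primary cilium, started higher. It held 112, 109 and 110 in control and 332, 383 and 364 in KO, a change of 1.70 ± 0.06. Its control libraries differed by only a few counts while every KO library was far above them.

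Snx20, a sorting nexin that binds the selectin ligand PSGL-1, was one of the loci that the study cloned for reporter assays, as were Piwil2 and B3gnt3. At the Snx20 promoter the counts were 193, 164 and 184 in control and 497, 519 and 502 in KO (1.48 ± 0.07), and at an intronic interval 5041 bp into the gene they were 84.9, 81.7 and 83.5 against 239, 240 and 256 (1.54 ± 0.04). Both Snx20 intervals thus moved by nearly the same amount. Peak fold over background rose from 2.30 to 3.33 at the intronic interval, but only from 3.72 to 3.80 at the promoter.

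At Piwil2, the PIWI protein that carries piRNAs in the germline, the promoter interval held 134, 120 and 154 in control and 303, 288 and 314 in KO (1.15 ± 0.11). B3gnt3, a Golgi N-acetylglucosaminyltransferase, had an intronic interval at 76.0, 88.9 and 84.8 in control against 235, 230 and 235 in KO (1.48 ± 0.07). Its promoter interval, already at 337, 314 and 341, reached 430, 460 and 410, a change of 0.39 ± 0.06. The intronic and promoter intervals of B3gnt3 therefore differed in size of change, with no test of that difference made.

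Next by size came the promoters of Rcan3, an inhibitor of calcineurin (1.43 ± 0.28), Mab21l3 (1.404 ± 0.28), Upf3b of nonsense-mediated decay (1.34 ± 0.23), Frmpd1 (1.29 ± 0.05) and the small GTPase Arl9 (1.29 ± 0.07). Below these the counts at Ash2l, a core subunit of the MLL H3K4 methyltransferases, were 82.7, 78.9 and 78.3 in control and 138, 182 and 211 in KO (1.12 ± 0.18). The KO libraries of Ash2l were more spread than the control ones. At Notch1, the receptor of the Notch pathway, the counts were 112, 95.3 and 82.2 against 199, 197 and 230 (1.11 ± 0.15), and the fibroblast mean of 188 was close to the KO level.

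**Figure D2:**
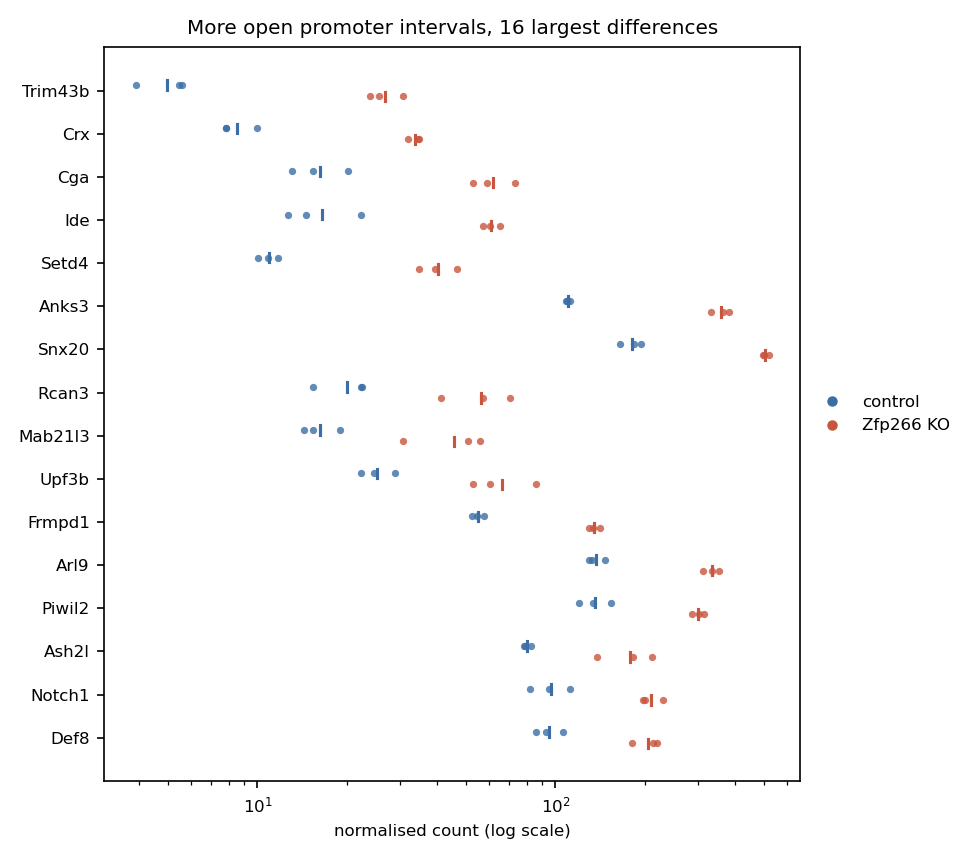
Normalised counts (x axis, log scale) of the 16 promoter intervals with the largest change, by the gene of the nearest start site. Points are single libraries, 3 control and 3 Zfp266 KO, and vertical ticks are group means. In each row the KO points lie to the right of all control points, which the choice of intervals favours.

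The largest changes of all were distal. An interval in an intron of Capn7, a calpain of the endosomal pathway, held 11.2, 9.07 and 10.4 in control and 94.2, 97.2 and 114 in KO, 9.96-fold higher (3.20 ± 0.12). Intergenic intervals nearest to Nectin3, a cell adhesion protein (3.15 ± 0.49), and to Rfx3, a factor of ciliated cells (3.07 ± 0.35), are 645432 and 258076 bp from those start sites, so the nearest gene is a label only. An intronic interval of Dnajc1, a chaperone partner of the endoplasmic reticulum, went from 6.70, 4.54 and 7.83 to 41.2, 68.9 and 57.2 (2.94 ± 0.29). None of these 4 had a control peak, and their KO peaks were between 2.26 and 3.79-fold over background. An interval nearest to Rpl14 (3.05), at 173698 bp, started higher, from 56.5 to 442.

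At the other end of the list stood wide, already open intervals. The smallest changes were at Cx3cr1 (0.24 ± 0.06), near Rab42 (0.25 ± 0.04), in Fscn1 (0.26 ± 0.07) and at the promoters of Rcc1 (0.27 ± 0.03) and Glb1 (0.28 ± 0.04). Fscn1 encodes the actin-bundling protein fascin and had the highest KO mean of any MOR, with 1771, 1857 and 1724 in control and 2047, 2326 and 2042 in KO. The other high KO means were in Rcc1, the exchange factor of Ran (1549 to 2016), near Rab42 (1627 to 1928), near Traf3ip2 (1499 to 1832) and in Atg4c, an autophagy protease (1163 to 1566). The merged KO peak over the Fscn1 interval was 2.18-fold against 2.23-fold in control, so the peak lists did not show this rise.

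Listed intervals sometimes lay next to each other. Joining those under 50 kb apart gave 1417 groups, of which 1268 held 1 interval, 117 held 2 and 32 held 3 or more. The longest run held 7 MORs between Cdc25a and Map4 on chr9, a run picked here for its length. Cdc25a is a phosphatase that activates cyclin-dependent kinases and Map4 a microtubule-associated protein. From the Cdc25a side inward the changes were 0.34, 0.67, 0.45, 1.22, 0.81, 1.26 and 2.69. The last, inside Map4, went from 22.3, 7.26 and 14.4 to 92.4, 94.7 and 88.9, while the first was at 450 ± 19.2 in control and 572 ± 39.7 in KO (SD, n = 3).

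A run of 5 MORs lay at Usp7, the deubiquitinase of the p53 regulator MDM2, of which 4 were in its introns and 1 was 2738 bp upstream. Their changes were 0.76, 0.79, 0.57, 1.74 and 0.60. Casc3, a core protein of the exon junction complex, also hosted 4, at its promoter (0.37) and in 3 introns (1.26, 1.24 and 1.38). Gm20388 hosted 6, but it is a model of 4434882 bp that runs across many other genes and 1003 merged intervals. Genes with 3 hosted MORs included Dip2a, Fbxw11, Flvcr2, Gramd1b and Map4, the first of 15 tied genes by name. In all 834 protein-coding genes hosted a MOR, and 744 of them hosted only 1.

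The more open sequences had a feature in common. Within 150 bp of the midpoint of the MORs 37.6% of bases were soft-masked as repeats in the reference, against 20.8% over all merged intervals and 14.8% in more closed regions. The word of 12 letters found in the largest number of MOR windows, counting both strands, is in capitals in the sequence below. It was present in 311 MOR windows (20.4%), in 1.00% of windows of all merged intervals and in 0 of 86 more closed windows, which allows a share of up to 3.49%. Aligning the 311 windows on it gave a majority sequence of 114 bases with a mean agreement of 78.3% between windows. It is shown because a match to it was found in most MORs:

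majority sequence: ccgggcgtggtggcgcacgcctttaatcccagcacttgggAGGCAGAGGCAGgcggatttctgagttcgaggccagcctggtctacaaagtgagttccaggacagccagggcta

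The letters read as those of the mouse B1 element, a short interspersed repeat derived from 7SL RNA, although no repeat annotation was used to name it. All of the 10 most shared words lie within this sequence. A match of at least 60 bases was found in 1118 MORs (73.5%), in 6.87% of all merged intervals and in 1 of the 86 more closed regions. Because the sequence was built from the MORs, its high share there is a description and no test. MORs with a match changed by a median of 1.01 and those without by 1.11, from median control means of 70.3 and 44.8.

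Matches at named loci are printed from the genome (GRCm38), in the direction of the majority sequence, with the letters GGGNGNGG, a KLF-type box, in capitals where present on either strand:

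Anks3 promoter, chr16:4948912-4949025, plus strand: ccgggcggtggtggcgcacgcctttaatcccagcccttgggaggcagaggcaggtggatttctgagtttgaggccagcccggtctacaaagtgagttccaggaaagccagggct

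Piwil2 promoter, chr14:70429543-70429635, plus strand: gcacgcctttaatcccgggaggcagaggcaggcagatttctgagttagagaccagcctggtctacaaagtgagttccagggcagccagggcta

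Capn7 intron, chr14:31341328-31341412, minus strand: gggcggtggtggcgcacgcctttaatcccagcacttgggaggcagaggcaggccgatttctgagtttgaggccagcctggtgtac

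Dnajc1 intron, chr2:18324561-18324673, plus strand: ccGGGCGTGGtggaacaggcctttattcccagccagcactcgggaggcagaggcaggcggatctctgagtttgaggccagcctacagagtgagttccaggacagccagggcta

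The copies at Piwil2, Anks3 and Dnajc1 lay 16, 10.5 and 31 bp from the interval midpoint. Of these 4 copies only that at Dnajc1 held the box. Neither Snx20 interval held a match, although the study worked with a B1 sequence at Snx20. Shorter matches were not searched there.

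The KLF-type string GGGNGNGG was found within 150 bp of the midpoint in 37.3% of MORs, 39.5% of more closed regions and 27.9% of all merged intervals. The SOX strings CCTTTGT and CCATTGT were found in 14.6%, 25.6% and 13.4%. The octamer ATTTGCAT was found in 2.17% of MORs, 0 of 86 more closed regions and 2.04% of all merged intervals. The AP-1 string TGANTCA was found in 16.4%, 5.81% and 21.1%. The CTCF motif was found in 0.591% of MORs and 1.31% of all merged intervals. Both strands were searched, and a string is a description and not a bound site.

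The merged peak lists were called on the same libraries on which the intervals were chosen. Their direction is therefore largely fixed by that choice and is a description and no separate support. A KO peak overlapped 99.2% of MORs and a control peak 65.0%, while 521 MORs had a KO peak alone and 0 a control peak alone. Of all merged intervals 58.9% had a KO peak and 61.2% a control peak, and 13555 had a KO peak alone. At the 989 MORs with both, the median fold over background was 2.92 in control and 3.65 in KO, and the KO fold was the higher at 778 (78.7%), against 44.2% of the merged intervals with both. Of the 80 more closed regions with both peaks the KO fold was the higher at 9, with medians of 4.12 in control and 3.45 in KO. The lists were called on merged libraries and carry no replicate error.

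**Figure D3:**
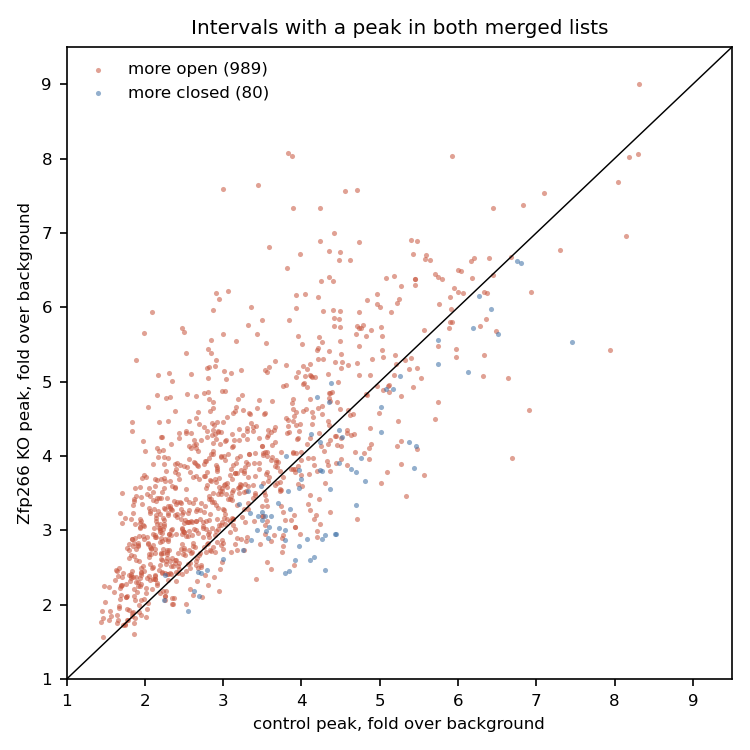
Fold over background of the merged control peak (x axis) and the merged Zfp266 KO peak (y axis) at listed intervals that overlap a peak in both lists, with the line of equal values. Of 989 more open intervals 778 lie above the line, and of 80 more closed ones 9 do, which the choice of intervals on the same libraries favours.

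The fibroblast mean, taken over all 6 fibroblast libraries, had a median of 13.7 normalised counts at MORs and 22.4 at more closed regions, and a fibroblast control peak overlapped 29.1% and 39.5% of them. Relative to the reprogramming control mean, which itself differs between the directions by how they were defined, it was under 0.1 of the reprogramming control mean at 315 MORs (20.7%) and at 47 more closed regions (54.7%). It was above the reprogramming control mean at 256 MORs (16.8%) and 9 more closed regions. Of the MORs 70 (4.60%) were also listed in the table of the same sgRNAs in fibroblasts, which holds 480 (0.176%) of all merged intervals, and 0 of the 86 more closed regions were. All 70 were higher in KO there, as were 479 of the 480 intervals of that table. At the interval nearest to Pim1, a kinase induced by STAT3, the change was 2.03 ± 0.12 in reprogramming cells and 1.96 in fibroblasts. An intronic interval of Fbxo15, a marker of embryonic stem cells, changed by 2.07 ± 0.22 and 1.95. Those that passed the threshold in only 1 context were not tested for a difference between contexts.

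Gene lists were read by asking which of their members host a listed interval or have the nearest start site. Of all 273256 merged intervals 0.557% were MORs, and of all protein-coding genes 6.75% had at least 1. Genes with more merged intervals have more chances of being counted, so the share of intervals is given beside the number of genes. The 2 measures can fall on different sides of their backgrounds.

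Of 32 pluripotency transcription factors 7 had a MOR, in 8 of the 1249 intervals of the list (0.641%). With the nearest start site limited to 50 kb the list had 5 in 445 (1.12%), against 0.675% of all intervals so assigned, and by host gene alone it had 1 in 176 (0.568%), against 0.656%. The interval 16478 bp upstream of Pou5f1, which encodes OCT4, held 93.9, 73.5 and 63.96 in control and 253, 193 and 227 in KO (1.54 ± 0.19), and another 9003 bp upstream held 89.4, 77.1 and 82.2 against 139, 140 and 167 (0.83 ± 0.10). Zfp42, the stem cell marker REX1, had an interval 40948 bp upstream at 54.8, 53.5 and 54.8 against 143, 139 and 198 (1.52 ± 0.16). No interval of the Pou5f1 or Zfp42 promoter was among the members.

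Other members of that list with a MOR were Tbx3 (2.22 ± 0.21), Zfp281 (1.71 ± 0.21), Sall4 (0.61 ± 0.07) and Tcf7l1 (0.47 ± 0.08). The intervals near Tbx3 and Zfp281 are 85180 and 77463 bp from the start site. Mycn was the only member of the list with a more closed region, 129768 bp from its start site, at 136, 152 and 161 in control against 112, 84.9 and 90.5 in KO (-0.64 ± 0.14). Among 31 pluripotency markers and signals only Fbxo15 and Lefty2, a Nodal inhibitor (0.41 ± 0.05), had a MOR, which is 6.45% of genes and 2 of 550 intervals (0.364%).

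Germline genes had 6 MORs in 363 intervals (1.65%), at 6 of 37 genes. Beside Piwil2 these were Ythdc2, a meiotic RNA helicase (1.39 ± 0.26), Tdrd9, a helicase of the piRNA pathway (1.12 ± 0.28), Tfap2c, a factor of primordial germ cells (0.96 ± 0.12), Stk31 (0.75 ± 0.07) and Nanos3 (0.72 ± 0.10). Genes of DNA methylation and demethylation had 5 MORs in 334 intervals (1.497%), at 4 of 21 genes. An intronic interval of Tet2, which oxidises 5-methylcytosine, held 80.4, 53.5 and 45.7 in control and 214, 188 and 214 in KO (1.80 ± 0.25). Tet1 (0.62 ± 0.07), the promoter of Dnmt3l (0.75 ± 0.16) and an intron of the cytidine deaminase Apobec1 (2.21 ± 0.42) were also more open. An exon of the de novo methyltransferase Dnmt3a was more closed, with 149, 164 and 134 in control against 86.0, 103 and 93.7 in KO (-0.65 ± 0.11).

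Genes that write, read or remove repressive histone marks, where they had a MOR, had 1 each. In the H3K9 list, with 3 of 24 genes, these were in Cbx1, which encodes the heterochromatin protein HP1 beta (1.39 ± 0.10), the H3K9 demethylase Kdm3a (0.71 ± 0.08) and Morc3 (0.60 ± 0.16), 3 of 265 intervals (1.13%). In the Polycomb and H3K27 demethylase list, with 5 of 32 genes, they were near Rybp (2.21 ± 0.10), in Kdm6a, an H3K27 demethylase (1.10 ± 0.09), in Mtf2 (0.95 ± 0.16) and Pcgf5 (0.85 ± 0.13) and at the promoter of Aebp2 (0.30 ± 0.02), 5 of 657 (0.761%). The Rybp interval is 71355 bp from the start site.

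A run of 4 MORs lay at Wwtr1, which encodes the Hippo effector TAZ, and these made up much of the 9 in 874 intervals (1.03%) of the Hippo, RUNX, TEAD and CEBP list, of which 6 of 30 genes had a MOR. From inside the gene outward they changed by 0.72, 1.95, 0.40 and 1.08. Cebpg (1.63 ± 0.11), Runx1 (0.90 ± 0.12), Vgll3 (0.90 ± 0.12), Sav1 (0.87 ± 0.08) and the kinase Lats2 (0.58 ± 0.07) had 1 each. The intervals of Runx1 and Vgll3 are 94532 and 385826 bp from the start site. In the LIF, JAK and STAT list, 6 of 590 intervals (1.02%) were MORs, at 6 of 34 genes, near Pim1, the feedback inhibitor Socs2 (1.39 ± 0.16), Il6 (1.25 ± 0.09) and Osm (0.84 ± 0.05) and in Stat5b (1.15 ± 0.18) and Pias1 (0.56 ± 0.10). The Il6 interval is 54624 bp from the start site.

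TGF-beta and BMP genes were at 0.371% of intervals and 14.0% of genes, with Tgfbr2 (2.13 ± 0.18) and Bmpr2 (1.30 ± 0.19) among the receptors and Smad3 (1.20 ± 0.10) among the signal carriers. The Tgfbr2 interval is 191650 bp from the start site, so the gene is a label only. The Smad3 interval lies in an exon of Aagab, 31199 bp from the Smad3 start site. Wnt genes were at 0.420% of intervals and 10.8% of genes, led by the receptor Fzd6 (2.43 ± 0.32) and the stem cell receptor Lgr5 (1.81 ± 0.45). FGF and MAPK genes were at 0.532% of intervals and had a MOR at 6 of 48 genes. Among them were intervals within the annotated span of the receptor gene Fgfr2 (2.04 ± 0.20 and 1.89 ± 0.14) and in Spred1, an inhibitor of Ras signalling (1.68 ± 0.18). The Fgfr2 intervals also lie in Nsmce4a and Plekha1, whose start sites are the nearest, at 6094 and 8835 bp, so Fgfr2 is a label only. By intervals these 3 lists lay under the background of 0.557%, and by genes above that of 6.75%. With the 50 kb limit their interval shares were 0.568%, 0.669% and 0.746%, against 0.675%.

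The mesenchymal, collagen, epithelial and AP-1 lists had interval shares under the background, while by genes the mesenchymal list was at 7.32%. Mesenchymal factors and markers had 3 MORs in 1824 intervals (0.164%), nearest to Zeb2, the repressor of E-cadherin (2.03 ± 0.35, at 961521 bp), in fibronectin, Fn1 (1.62 ± 0.17), and near Ebf2 (1.20 ± 0.07). Collagens had 3 in 1233 (0.243%) at 2 of 43 genes, epithelial junction and keratin genes 2 in 701 (0.285%) at 2 of 49 genes, in the tight junction gene Ocln (1.45 ± 0.24) and near Itga6 (0.66 ± 0.04), and AP-1 factors 1 in 403 (0.248%) at 1 of 19 genes, near Fosl2 (1.33 ± 0.04). The Itga6 interval is 67801 bp from the start site.

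**Figure D4:**
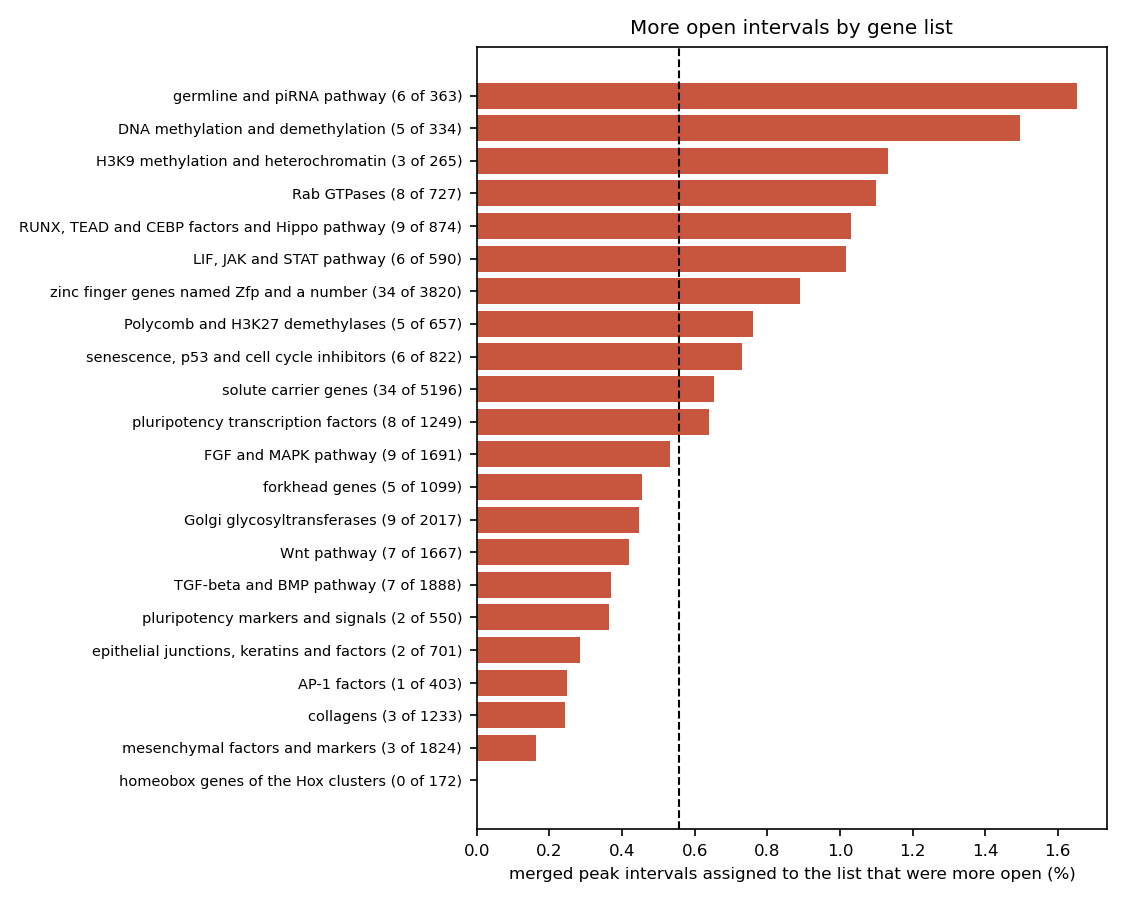
Share of the merged intervals assigned to each gene list described here that were more open in Zfp266 KO (bars, percent), with the more open and total intervals in brackets and the 0.557% of all merged intervals as a dashed line. The germline list reached 1.65%, the mesenchymal list 0.164% and the Hox list 0 of 172. No test of the lists was made. All bars but those of the Zfp and solute carrier lists, with 34 each, rest on fewer than 10 more open intervals.

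More closed regions were fewer than MORs. A larger share of them lay beyond 100 kb of a start site (39.5% against 9.72%, and 25.8% of all merged intervals). The 7 at promoters were 8.14%, against 3.29% of MORs and 6.56% of all merged intervals. A control peak overlapped 96.5% of them. The largest falls were from low counts. An intron of Megf10, a phagocytic receptor, went from 24.6, 13.6 and 14.4 to 2.74, 8.61 and 3.18 (-1.75 ± 0.50), and an intron of the neuronal adhesion gene Negr1 from 14.5, 19.96 and 28.7 to 8.23, 3.69 and 6.35 (-1.64 ± 0.39). An intron of the growth factor gene Igf1 went from 16.8, 15.4 and 20.9 to 3.66, 7.38 and 4.76 (-1.61 ± 0.28). These 3 had a peak in neither list, and their fibroblast means of 31.1, 34.5 and 91.6 were above the reprogramming control means.

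In an intron of the cadherin gene Cdh4 the counts were 38.0, 34.5 and 27.4 in control and 10.1, 9.84 and 12.7 in KO (-1.53 ± 0.17), with a fibroblast mean of 5.22. In an intron of Sgcd, a subunit of the muscle sarcoglycan complex, they were 76.0, 63.5 and 52.2 against 23.8, 36.9 and 28.6 (-1.08 ± 0.24), with a fibroblast mean of 1.78. Between these in size came an interval nearest to Prmt6 (-1.15 ± 0.20), whose fibroblast mean of 40.3 was above its control mean of 36.8. The remaining 4 of the 10 largest falls were nearest to Krtap21-1 (-1.04 ± 0.26), Gm21833 (-0.95 ± 0.21), Irs2 (-0.93 ± 0.11) and Tyrp1 (-0.90 ± 0.26), all more than 50 kb away and with fibroblast means under 8.

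At 184756 bp upstream of Jun, an AP-1 factor, the counts were 142, 168 and 149 against 89.7, 98.4 and 79.4 (-0.77 ± 0.11), and the fibroblast mean was 7.23. A pair of intervals was nearest to Sox9, a chondrocyte and progenitor factor, at 8643 bp upstream (291, 275 and 342 against 216, 208 and 200) and 88445 bp away (209, 208 and 209 against 145, 157 and 125), with changes of -0.53 ± 0.10 and -0.55 ± 0.10. An intron of the repressor Klf12 held 217, 216 and 257 in control against 166, 164 and 143 (-0.54 ± 0.11), and an intron of Col19a1 fell by 0.54 on the log2 scale. The peaks at Klf12, Col19a1 and the more distant Sox9 interval were higher in the merged KO list than in the control list, at 4.98 against 4.37, 3.53 against 3.31 and 4.73 against 4.35-fold.

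Stretches of 60 bases round 1 SOX string, in capitals, are shown for 4 of these regions, since the string was found in 22 of the 86 windows (plus strand, GRCm38; the string at Mycn is read on the other strand, and another copy of it follows in lower case):

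Cdh4, chr2:179655217-179655276: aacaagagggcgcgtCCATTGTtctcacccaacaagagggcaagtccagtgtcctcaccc

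Jun, chr4:95236857-95236916: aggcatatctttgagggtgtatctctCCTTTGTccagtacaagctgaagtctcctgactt

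Sox9, chr11:112870655-112870714: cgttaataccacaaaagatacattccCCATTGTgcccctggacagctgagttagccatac

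Mycn, chr12:12810738-12810797: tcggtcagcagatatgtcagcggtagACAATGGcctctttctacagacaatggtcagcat

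More closed regions with the string changed by a median of -0.55 and those without by -0.63.

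At promoters there were 7 more closed regions. Hp, the acute phase protein haptoglobin, had the largest fall of these, from 92.7, 82.6 and 97.9 to 57.6, 56.6 and 46.0 (-0.76 ± 0.12). The others were the promoters of Rasef (-0.48 ± 0.14), Birc7, an inhibitor of apoptosis (-0.44 ± 0.09), Dpep1, a membrane dipeptidase (-0.42 ± 0.04), Pfkm, the muscle phosphofructokinase (-0.39 ± 0.05), Cope, a subunit of the COPI coat (-0.39 ± 0.09), and Repin1 (-0.36 ± 0.08). At Cope the counts were 470, 446 and 406 in control against 326, 367 and 316 in KO. The Birc7 and Repin1 peaks were higher in the merged KO list (4.01 and 4.80-fold) than in the control list (3.81 and 4.19-fold), against the direction of the counts.

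**Figure D5:**
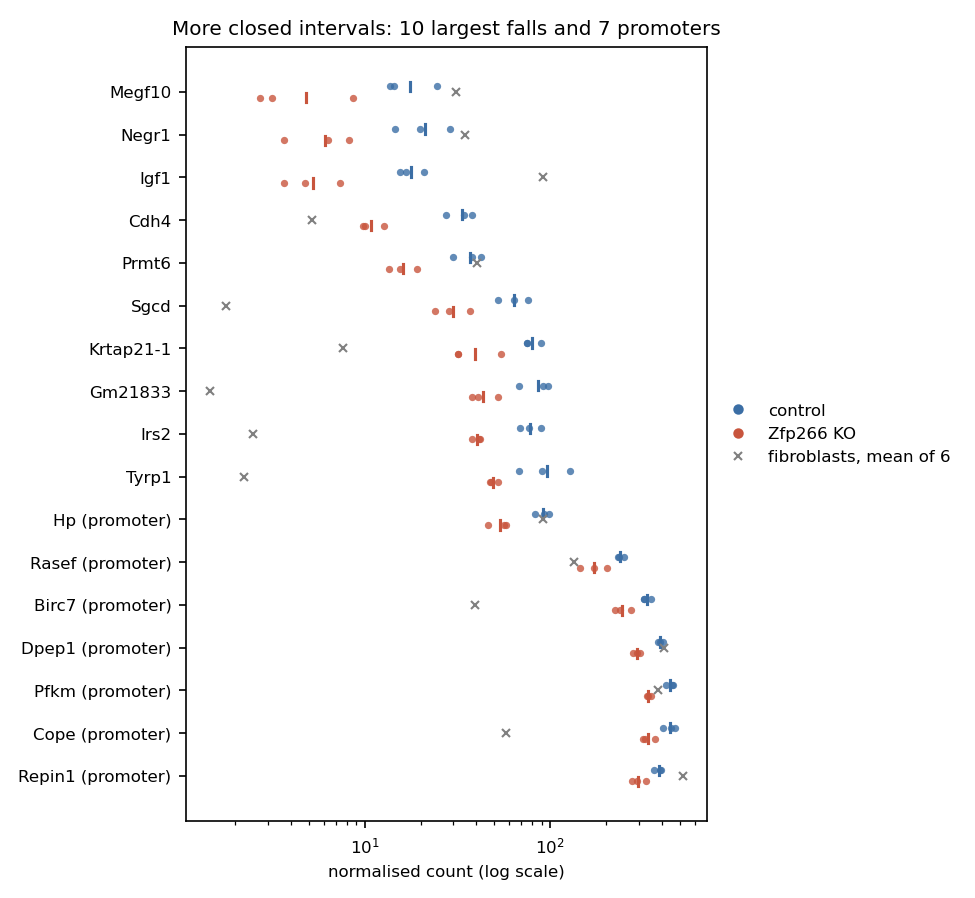
Normalised counts (x axis, log scale) of the 10 more closed intervals with the largest falls and the 7 at promoters, by host gene for introns and by nearest gene otherwise. Points are single libraries, ticks are group means and crosses the mean of the 6 fibroblast libraries; Megf10, Negr1 and Igf1 have crosses to the right of the control points, Prmt6 has its cross between its control points, and Cdh4, Sgcd, Krtap21-1, Gm21833, Irs2 and Tyrp1 have them to the left of the KO points.

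There were 12 genes assigned both a MOR and a more closed region. In introns of Hipk2, a kinase that phosphorylates p53, 1 interval went from 118 to 74.1 (-0.67 ± 0.05) and another from 279 to 402 (0.52 ± 0.10). Around Iqsec1 an intronic interval fell from 283 to 187 (-0.60 ± 0.09), while another in the gene went from 8.71 to 38.7 (2.03 ± 0.32) and 1 beside it from 129 to 319 (1.31 ± 0.14). In Cdyl, a chromodomain protein, the falling interval went from 166 to 107 (-0.63 ± 0.08) and the rising one, 32940 bp from a start site, from 525 to 692 (0.40 ± 0.04).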

How the data were processed

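Tn5-transposed DNA was sequenced and, per the methods, trimmed with Cutadapt, aligned with BWA to GRCm38 and filtered; Cutadapt and BWA versions and any Tn5 shift of reads are not given in the sources used here. The authors called broad peaks with MACS2 on merged replicates, whose deposited lists give fold over background and a −log10 q-value, and deposited per-interval raw read counts and DESeq2-normalised counts (signal) for intervals past their threshold. Their own fold changes and p-values in that table were not used. The 4 peak lists were merged with bedtools 2.31.1, and intervals were assigned by midpoint with GENCODE M21. Host genes and start sites are protein-coding. The raw counts were refitted with edgeR 4.0.16 (quasi-likelihood, size factors recovered from the table, adjusted p under 0.05); the code was tested on simulated data. The majority sequence was matched with BLAST+ 2.17.0 (at least 60 bases, E-value 1e-05). Fibroblast means came from the deposited mean over 12 libraries. Members and lists were chosen with earlier results of these data known. Named were the 12 largest promoter changes, the 8 top host genes, the 5 largest, 5 smallest and 5 highest MORs, the 10 largest falls, closed promoters, gene list members and the cloned loci; Ash2l, Notch1, Sox9, Klf12, Col19a1, Hipk2, Iqsec1, Cdyl and the Cdc25a run were added after their values were seen. Some members and gene lists are not reported here.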

Additional observations from a re-analysis of the deposited data

How the results depend on the processing

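Because the table holds only intervals past its own threshold, refits on it describe those intervals and cannot show what was missed. The refit called 1522 more open and 86 more closed. DESeq2 called 1448 and 74, and leaving out each library in turn called 1469 to 1499 and 77 to 83. With TMM factors, which assume that most intervals of the list do not change and move all of them down by a similar amount, 185 and 288 were called and 691 intervals changed sign; with unscaled raw counts 330 and 1 were called. Requiring a log2 change of at least 1 left 796 and 7. A pseudocount of 10 moved the median of the MORs to 0.91. The promoter share of MORs was 2.17% within 500 bp, 7.75% within 2500 bp, 8.34% with start sites of all genes and 4.73% with any base. The share with a control peak was 42.4% at a reciprocal overlap of 50% and 62.0% for peaks with a −log10 q-value of at least 2. List genes with a MOR numbered 154, or 83 by host gene only, and with a more closed region 8, or 5 within 50 kb and 5 by host gene only. Any of the searched strings was found in 57.0% of MORs, 80.2% within 300 bp of the midpoint and 92.3% in the whole interval, where soft-masked bases made up 35.1%. The cause of these shifts was not tested.

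With the replicate number as a block 1522 and 86 were called. The deviations of same-numbered control and KO libraries correlated at 0.037, 0.10 and 0.081, not all above 0.1, so the numbers were not treated as pairs, although each library correlated best with its own number, a hint from the data and not the design. Single strings rose with the window, to at most 79.0% (KLF), 40.1% (SOX), 6.96% (OCT), 44.1% (AP-1) and 1.71% (CTCF) of MORs over whole intervals. Of 74 alternatives in all 46 moved no call or value beyond its limit.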

Other observations

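Large gene families were spread over the more open list. Of 391 zinc finger genes named Zfp and a number 27 (6.91%, against 6.75% of all protein-coding genes) had a more open region, in 34 of 3820 merged intervals (0.890%, against 0.557% of all), and 0 had a more closed one, against 0.424% of all genes. The largest were in introns of Zfp74 (2.29 ± 0.38) and Zfp638 (2.08 ± 0.19) and near Zfp217 (1.94 ± 0.25). Rab GTPases, which direct vesicle traffic, had 8 in 727 (1.10%) at 8 of 59 genes, with an intron of Rab28 at 34.6, 28.1 and 36.5 in control against 140, 159 and 184 in Zfp266 KO (2.25 ± 0.16). Solute carrier genes had 34 in 5196 (0.654%) at 29 of 334 genes, led by Slc24a3 (2.57 ± 0.35), and forkhead genes 5 in 1099 (0.455%) at 4 of 44 genes, led by Foxn2 (2.24 ± 0.16). Golgi glycosyltransferases had 9 in 2017 (0.446%) at 7 of 86 genes, among them B4galt1 (1.92 ± 0.31). Genes of senescence, p53 and cell cycle inhibition had 6 in 822 (0.730%) at 4 of 38 genes, led by Cdk6 (1.28 ± 0.13). Of the 172 intervals of the Hox clusters 0 were listed, which allows a share of up to 1.74%.

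The share of merged intervals that were more open ran from 0.396% on chromosome 1 to 0.831% on chromosome 11 among the autosomes, and was 0.768% on X.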
